A study of Homo sapiens with 8 samples.

Results

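Protein disulfide isomerases and the ERO1 oxidases are the enzymes that make and rearrange disulfide bonds in proteins folding inside the endoplasmic reticulum (ER). 10 genes of these families, chosen by gene symbol, make up the set described here. They are P4HB, PDIA3, PDIA4, PDIA5, PDIA6, TXNDC5, TXNDC11 and ERP44, and the oxidases ERO1A and ERO1B. Those before the oxidases are called isomerases below by family, whatever the activity of each. All 10 had a row in the count table, which holds 35394 genes, and all 10 passed the filter on low counts that left 15006 genes for testing. The cells were HCT116, a human colorectal cancer line of colon epithelial origin whose label gives a ras mutation as genotype. The treated cells received Pien Tze Huang (PZH), a compound remedy of Chinese medicine, for 24 h, in 4 libraries, and the control cells received DMSO, in 4 libraries. The sources used here give no dose of PZH, and the 24 h is recorded for the PZH samples only. The labels number the replicates but do not say whether they were separate cultures, so p-values measure the spread between these libraries, which may be technical.

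Disulfide bonds form when an isomerase passes its own oxidised cysteine pair to a client protein. The isomerase is then left reduced, and an ERO1 oxidase restores it, handing the electrons to oxygen, so that each bond made this way yields a molecule of hydrogen peroxide. Isomerases also reduce and reshuffle wrong bonds, and several hold clients ready for other enzymes. Many of these genes are known targets of the unfolded protein response, the programme that cells run when unfolded protein collects in the ER. The study's title ties PZH to reactive oxygen species, and the comparison asks which of these peroxide-producing and bond-making enzymes differ between treated and control cells.

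PZH libraries held 18144117 to 18868057 counts and DMSO libraries 19288836 to 19917571. Levels below are CPM, counts scaled to library size with edgeR's TMM factors. In bulk samples such as these, more RNA per cell and more cells that carry it cannot be told apart. The epithelial markers EPCAM, KRT8, KRT18, KRT19 and CDH1 each averaged at least 79.2 CPM in both groups. In all, 8 epithelial markers summed to 2508.5 to 3013 CPM in PZH and 3498 to 3581 CPM in DMSO. The intestinal markers VIL1 and KRT20 had 1 and 2 counts over the PZH libraries and 4 and 115 over the DMSO libraries. CDX2, also an intestinal marker, had 622 counts over the PZH libraries and 1141 over the DMSO libraries. Summed over its markers, immune signal ran from 0.622 to 2.18 CPM in PZH and from 0.233 to 2.83 CPM in DMSO, endothelial signal from 0.295 to 0.905 CPM in PZH and from 1.002 to 1.44 CPM in DMSO, and erythroid signal from 0 to 0.295 CPM in PZH and from 0.140 to 0.456 CPM in DMSO. The 6 fibroblast markers summed to 19.5 to 23.3 CPM in PZH and 10.7 to 13.0 CPM in DMSO, of which COL1A1 made up most, while COL1A2 had 0 counts and DCN and LUM at most 1. The part of these signals in the results was not tested.

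The set rose in PZH-treated cells, apart from a pair of genes. At an edgeR quasi-likelihood p below 0.05, Benjamini-Hochberg adjusted across every gene tested, 8 of the 10 genes were called higher, beside 39.3% of all genes tested, and 1 was called lower, beside 40.9%. In either direction that is 9 of 10 genes, in a comparison that called 80.3% of all genes tested, so being called is in itself close to the background. Of the 8 isomerases 7 rose and TXNDC5 did not pass the test. Of the oxidases, ERO1B rose and ERO1A fell. The median log2 fold change over the 10 genes was 1.17, beside -0.024 over all genes tested. In 6 of the 10 genes the rise was at least 2-fold, as in 15.8% of all genes tested. Of these, P4HB and PDIA4 were under 2-fold without scaling factors (log2 0.83 and 0.99). In 8 genes every PZH library stood above every DMSO library, as in 36.6% of all genes tested, and in 1 gene every PZH library stood below, as in 38.4% (in either direction 75%). The counts of 8 called higher and 1 called lower were the same under all 23 alternative settings.

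**Figure D1:**
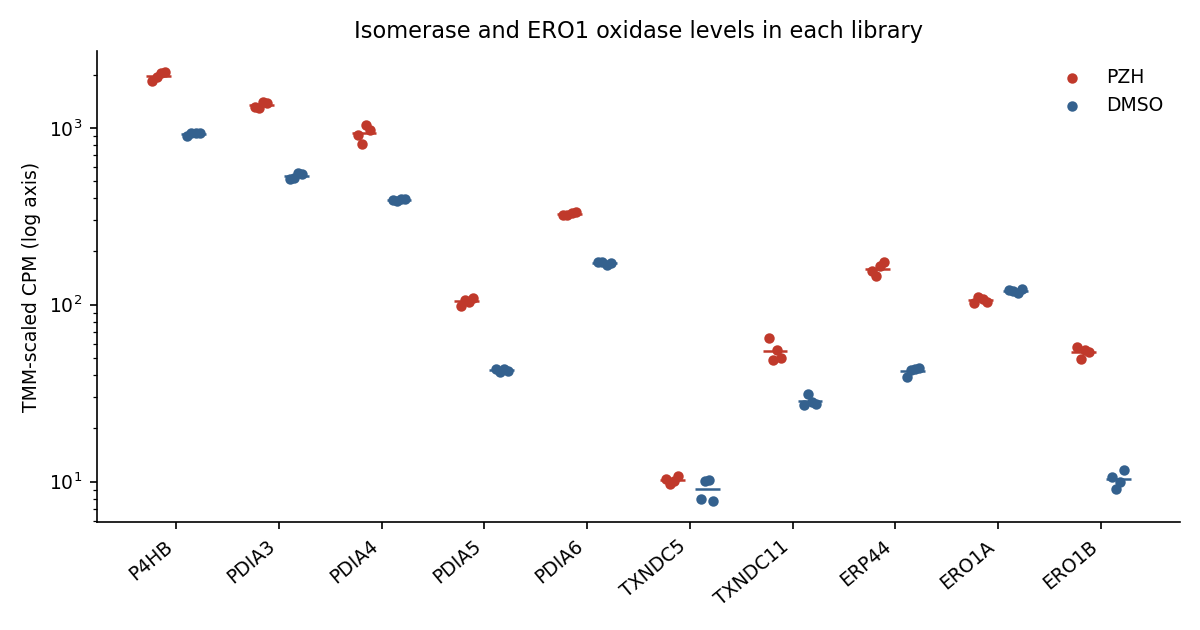
Level of each gene in each library, in TMM-scaled CPM on a log axis. Points are libraries (4 per group) and the short lines their means. ERO1B and ERP44 show the widest gaps between PZH and DMSO, TXNDC5 overlaps, and ERO1A lies slightly lower in PZH.

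P4HB encodes PDI itself, the founding isomerase, which also serves as a subunit of collagen prolyl 4-hydroxylase. It stood at 1844, 1929, 2057 and 2066 CPM in the PZH libraries (replicates 1 to 4), against 902, 936, 938 and 938 CPM in the DMSO libraries. All PZH libraries were above all DMSO libraries, and the fold change was 2.13 (log2 1.09 ± 0.053 SE, edgeR adjusted p = 9.00e-15). PDIA3, also called ERp57, works on glycoproteins bound to calnexin and calreticulin. Its levels were 1308, 1288, 1395 and 1375 CPM in PZH and 515, 523.5, 553 and 550.2 CPM in DMSO, again with no overlap, a rise of 2.51-fold (log2 1.33 ± 0.051 SE, edgeR adjusted p = 1.23e-16). PDIA4, or ERp72, is an isomerase with several active domains. It stood at 916, 810.4, 1042.5 and 976 CPM in PZH, against 391, 385, 398 and 399 CPM in DMSO. Replicate 2 was the lowest of the PZH libraries and still well above every DMSO library, and the fold change was 2.38 (log2 1.25 ± 0.062 SE, edgeR adjusted p = 1.24e-14).

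PDIA6, or P5, is an isomerase known to bind the chaperone BiP and to damp the ER stress sensors. It stood at 323, 321, 329 and 335 CPM in PZH and at 173, 173, 168 and 172 CPM in DMSO. The libraries of a group lay close together and the groups far apart, and PDIA6 rose 1.91-fold (log2 0.93 ± 0.043 SE, edgeR adjusted p = 4.08e-15). PDIA5, or PDIR, is a less studied isomerase. It had 98.1, 106.5, 104 and 109 CPM in PZH and 43.1, 41.8, 43.6 and 42 CPM in DMSO, without overlap, a rise of 2.45-fold (log2 1.29 ± 0.049 SE, edgeR adjusted p = 1.29e-16).

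ERP44 holds unfinished proteins and both ERO1 oxidases back in the early secretory pathway by mixed disulfides. Among the family members counted here as isomerases, it rose most. Its levels were 156, 144, 165 and 175 CPM in PZH, against 39.02, 42.6, 43.3 and 43.8 CPM in DMSO. Every PZH library was more than 3 times the highest DMSO library, and the fold change was 3.79 (log2 1.92 ± 0.058 SE, edgeR adjusted p = 1.87e-18). Of all genes tested, 95.0% had a smaller log2 fold change than ERP44. TXNDC11, a membrane-bound thioredoxin-like protein that contacts the machinery for degrading misfolded glycoproteins, had 64.7, 48.7, 55.7 and 50.1 CPM in PZH and 27.0, 31.4, 28.1 and 27.5 CPM in DMSO. Its PZH libraries spread more widely than those of any other gene of the set, with a coefficient of variation of 13.3%, but did not overlap with DMSO, and the rise was 1.92-fold (log2 0.94 ± 0.078 SE, edgeR adjusted p = 1.70e-10).

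TXNDC5, or ERp46, a fast-acting partner of ERO1A, was the isomerase that did not pass. It stood at 10.3, 9.73, 10.1 and 10.8 CPM in PZH and at 7.98, 10.1, 10.2 and 7.78 CPM in DMSO. The PZH libraries lay around the upper pair of DMSO libraries, and the groups overlapped. The log2 fold change was 0.18 ± 0.11 SE (edgeR adjusted p = 0.151), and it turned to -0.078 without scaling factors (edgeR adjusted p = 0.546, with a range over all alternatives of 0.0700 to 0.546). TXNDC5 had 693 counts over the PZH libraries and 772 over the DMSO libraries. This row may lack reads that it shares with a readthrough row, described below.

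**Figure D2:**
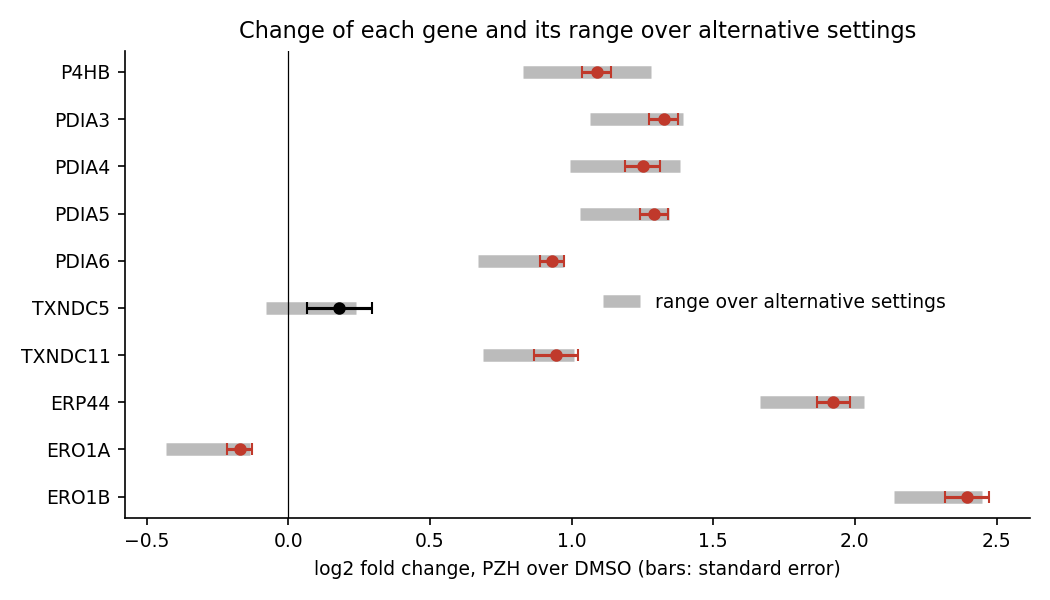
Log2 fold change of each gene, PZH over DMSO, with its standard error (bars), and the range of the value over 23 alternative settings (grey). TXNDC5, drawn in black, did not pass the test at 0.18; the other 9 genes stayed on one side of 0 in every setting.

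Promoter sequences from RefSeq (build GRCh38.p14), each running from 250 bases before the gene start to 50 after it, were found for 9 of the 10 genes, in 12 windows; PDIA3 had no entry. They were searched on both strands for elements known from the unfolded protein response. The ER stress element is CCAAT followed, after 9 bases, by CCACG. It was found in 2 of the 9 genes, PDIA6 and ERO1B, whereas 0.0769% of 35114 human promoter windows hold it. Allowing 1 changed letter added 0 genes, where 1.48% of windows match. The genes with 2 windows each (PDIA4, PDIA6 and TXNDC5) had more sequence to search. A match describes the letters only. The PDIA6 window lies on the minus strand at chr2:10812736-10813035 and is shown because it holds this element, in capitals, at -86 to -68 relative to the gene start. The TXNDC5 window, on the minus strand at chr6:7910028-7910327, is shown as that of the isomerase that did not pass, with the letters TGACGTG, the core that XBP1 and ATF6 are known to bind, in capitals.
PDIA6: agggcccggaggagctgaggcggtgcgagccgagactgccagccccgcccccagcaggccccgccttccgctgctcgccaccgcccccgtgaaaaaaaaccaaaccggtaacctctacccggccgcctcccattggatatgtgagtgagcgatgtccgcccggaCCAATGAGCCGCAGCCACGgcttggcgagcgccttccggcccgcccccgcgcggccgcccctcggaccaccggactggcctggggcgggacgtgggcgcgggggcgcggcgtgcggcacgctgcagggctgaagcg
TXNDC5: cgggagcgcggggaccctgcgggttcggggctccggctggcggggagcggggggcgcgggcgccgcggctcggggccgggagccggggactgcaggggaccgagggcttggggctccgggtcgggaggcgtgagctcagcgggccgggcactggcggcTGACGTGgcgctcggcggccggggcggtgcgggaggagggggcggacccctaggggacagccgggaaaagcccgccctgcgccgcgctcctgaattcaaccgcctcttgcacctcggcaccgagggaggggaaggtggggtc

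TGACGTG was found in 2 of the 9 genes, TXNDC5 and TXNDC11, and in 1.97% of all windows. One of these rose and the other did not pass. TGATG followed, after any base, by AA, the element that ATF4 and CHOP are known to share, was found in 0 of the 9 genes and in 3.62% of all windows. ATTGG followed, after 1 base, by CCACG, a second form of the ER stress element, was found in 0 genes and in 0.0541% of all windows. TGAC followed, after 3 bases, by GC, part of the site of NRF2, was found in PDIA5 and TXNDC5 and in 13.3% of all windows. In TXNDC5 it shares its first bases with TGACGTG. The box CCAAT alone was found in 6 of the 9 genes and in 34.6% of all windows. P4HB carries 3 copies on its sense strand, the first beginning at -226 and the last at -114 relative to the gene start.

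The oxidases moved in opposite directions. ERO1B, which is known from secretory tissues and as a target of the unfolded protein response, stood at 57.8, 49.3, 55.1 and 54.02 CPM in PZH, against 10.6, 9.03, 9.95 and 11.55 CPM in DMSO. Every PZH library was more than 4 times every DMSO library. The fold change was 5.26 (log2 2.39 ± 0.078 SE, edgeR adjusted p = 6.24e-18), and 97.0% of genes tested had a smaller log2 fold change. ERO1A, the widely expressed oxidase known to respond to hypoxia and to CHOP, stood at 103, 111, 108 and 104 CPM in PZH and at 121, 119, 117 and 122 CPM in DMSO. The highest PZH library lay below the lowest DMSO library, but the gap was small. ERO1A was called 1.13-fold lower (log2 -0.17 ± 0.044 SE, edgeR adjusted p = 0.00127). The size of this fall depended on the scaling: it was -0.43 without scaling factors and -0.29 with each library's GC trend removed, and the call held in all 23 alternatives (adjusted p up to 0.0163).

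The promoters of the 2 oxidases are shown here, and whether their letters bear on the levels was not tested. ERO1B, on the minus strand at chr1:236281909-236282208, holds the ER stress element on its other strand, in capitals, at -243 to -225 relative to the gene start, so that it reads there as the reverse complement. ERO1A, on the minus strand at chr14:52695509-52695808, has no match to the ER stress element in this window. Nor do the windows of P4HB, PDIA4, PDIA5, TXNDC11 and ERP44, which were called higher. In the ERO1A window the letters in capitals are described next. They mark the reverse complement of ACGTG, the core that hypoxia-inducible factors are known to bind. ACGTG was found in 7 of the 9 genes and in 21.4% of all windows, and TGACGTG contains it.
ERO1B: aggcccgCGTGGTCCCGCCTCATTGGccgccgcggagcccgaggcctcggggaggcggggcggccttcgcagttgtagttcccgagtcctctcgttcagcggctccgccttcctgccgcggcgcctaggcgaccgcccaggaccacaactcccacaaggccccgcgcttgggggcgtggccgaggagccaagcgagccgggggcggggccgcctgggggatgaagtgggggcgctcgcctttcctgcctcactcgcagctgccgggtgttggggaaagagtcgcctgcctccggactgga
ERO1A: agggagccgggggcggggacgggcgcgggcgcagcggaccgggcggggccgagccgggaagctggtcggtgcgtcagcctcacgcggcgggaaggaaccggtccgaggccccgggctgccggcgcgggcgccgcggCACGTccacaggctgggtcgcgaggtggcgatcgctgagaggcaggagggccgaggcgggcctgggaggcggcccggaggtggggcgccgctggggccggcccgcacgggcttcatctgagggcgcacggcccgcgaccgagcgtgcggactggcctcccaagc

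A ratio of 2 genes inside a library does not depend on how libraries are scaled, and 3 such ratios of counts were set against the 70 possible assignments of libraries to groups in an exact permutation test, two-sided, whose smallest p is 0.0286. For 1 ERO1A count there were 0.563, 0.444, 0.511 and 0.521 ERO1B counts in the PZH libraries, against 0.0876, 0.0759, 0.0854 and 0.0947 in the DMSO libraries. The ratio was 5.93-fold higher in PZH, a log2 difference of 2.57 (exact permutation p = 0.0286, adjusted p = 0.0429 over 3 ratios). Every PZH library stood above every DMSO library for ERO1B and below for ERO1A, so the ratio had to separate fully. Its p therefore adds no evidence beyond the levels of the 2 genes. Per length of transcript, ERO1B made up 37.2 ± 2.30% of the ERO1 transcripts in PZH and 9.08 ± 0.750% in DMSO (mean ± SD, n = 4 each). PDIA6 per PDIA3 stood at 0.247, 0.249, 0.236 and 0.244 counts in PZH and at 0.337, 0.331, 0.304 and 0.313 in DMSO. It was lower in every PZH library (log2 difference -0.40, exact permutation p = 0.0286, adjusted p = 0.0429), so PDIA6 rose less than PDIA3 by more than the spread between libraries. PDIA4 per P4HB stood at 0.497, 0.420, 0.507 and 0.473 counts in PZH and at 0.433, 0.411, 0.424 and 0.425 in DMSO. These overlapped through PZH replicate 2, and the log2 difference of 0.16 did not pass (exact permutation p = 0.114, adjusted p = 0.114). Without PZH replicate 2 it was 0.22 (exact permutation, adjusted p = 0.0286, the smallest that 35 assignments allow). Leaving out the overlapping library fixed that p in advance, so it adds no evidence of a difference.

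**Figure D3:**
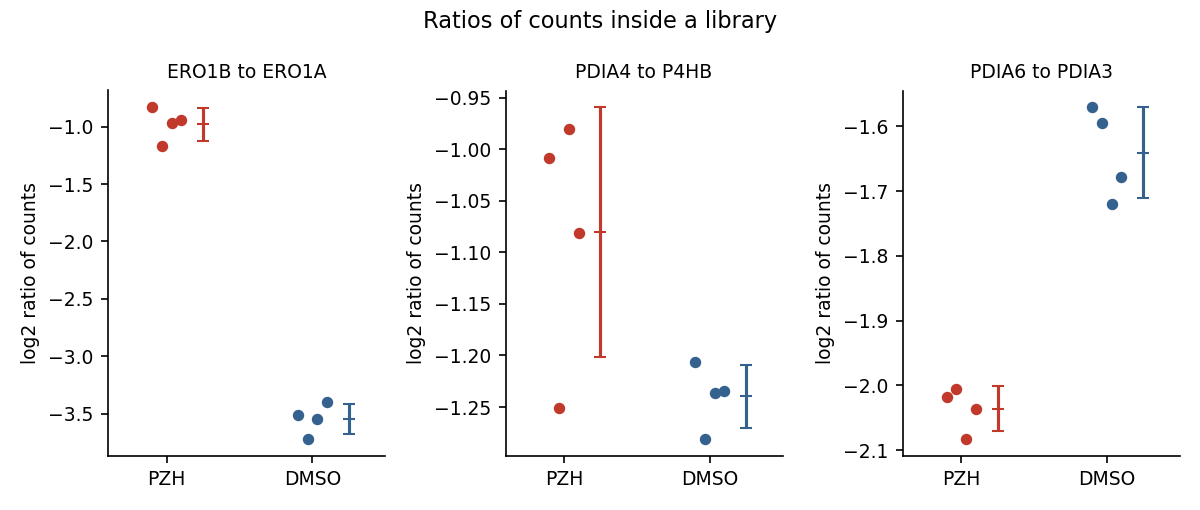
Log2 ratio of the counts of a pair of genes in each library, with the mean and SD of each group beside the points (n = 4 each). ERO1B to ERO1A is 2.57 higher in PZH on this scale, PDIA6 to PDIA3 is 0.40 lower, and PDIA4 to P4HB overlaps.

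Compared per kilobase of exon (union of exons in GENCODE 29), P4HB was the most abundant of the 10 genes in both groups, at 758 ± 41.2 CPM per kilobase in PZH and 356 ± 6.76 in DMSO (mean ± SD, n = 4 each). PDIA3 followed at 360.0 ± 13.8 in PZH and 144 ± 5.11 in DMSO. PDIA4 came next at 323 ± 33.9 in PZH, where its libraries overlapped with those of PDIA3, and 135 ± 2.23 in DMSO, where they did not. PDIA6 then stood at 93.9 ± 1.85 in PZH and 49.3 ± 0.760 in DMSO, and PDIA5 at 57.97 ± 2.60 in PZH and 23.7 ± 0.472 in DMSO. The lower part of the order differed between groups. In PZH, ERP44 (32.96 ± 2.67) came before ERO1A (19.99 ± 0.724), TXNDC11 (17.01 ± 2.26), ERO1B (11.8 ± 0.779) and TXNDC5 (3.17 ± 0.132). In DMSO, ERO1A (22.5 ± 0.439) came before TXNDC11 (8.85 ± 0.623), ERP44 (8.69 ± 0.447), TXNDC5 (2.80 ± 0.411) and ERO1B (2.25 ± 0.232). The libraries of ERO1A and TXNDC11 overlapped in PZH, and in DMSO those of TXNDC11 and ERP44, and of TXNDC5 and ERO1B, did. ERO1B was thus the lowest of the set in DMSO and above TXNDC5, without overlap, in PZH. The order was the same with the length of the longest coding transcript in place of the exon union.

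The 8 isomerases together took 4720, 4658, 5158 and 5098 CPM in the PZH libraries and 2098, 2144, 2183 and 2179 CPM in the DMSO libraries. The oxidases together took 160.5, 160.3, 163 and 158 CPM in PZH and 132, 128, 127 and 134 CPM in DMSO. Isomerase CPM per oxidase CPM was therefore 30.6 ± 1.61 in PZH and 16.5 ± 0.545 in DMSO. The 10 genes held 0.463 ± 0.0223% of all counts in PZH and 0.250 ± 0.00325% in DMSO (mean ± SD, n = 4 each). BiP, the main ER chaperone encoded by HSPA5, rose far more than the isomerases, so that isomerase counts per HSPA5 count were 0.247, 0.252, 0.228 and 0.227 in PZH and 1.96, 1.99, 1.99 and 1.93 in DMSO.

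The libraries of PZH varied more than those of DMSO. The coefficient of variation was larger in PZH for 8 of the 10 genes, the exceptions being TXNDC5 and ERO1B. For PDIA4 it was 10.5% in PZH and 1.64% in DMSO, and for P4HB 5.43% in PZH and 1.90% in DMSO. PZH replicate 2 was the lowest PZH library for 7 of the 10 genes and replicate 4 the highest for 5, while ERO1A, the gene that fell, was highest in replicate 2. The ratio of the highest to the lowest PZH library ran from 1.04 for PDIA6 to 1.33 for TXNDC11.

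**Figure D4:**
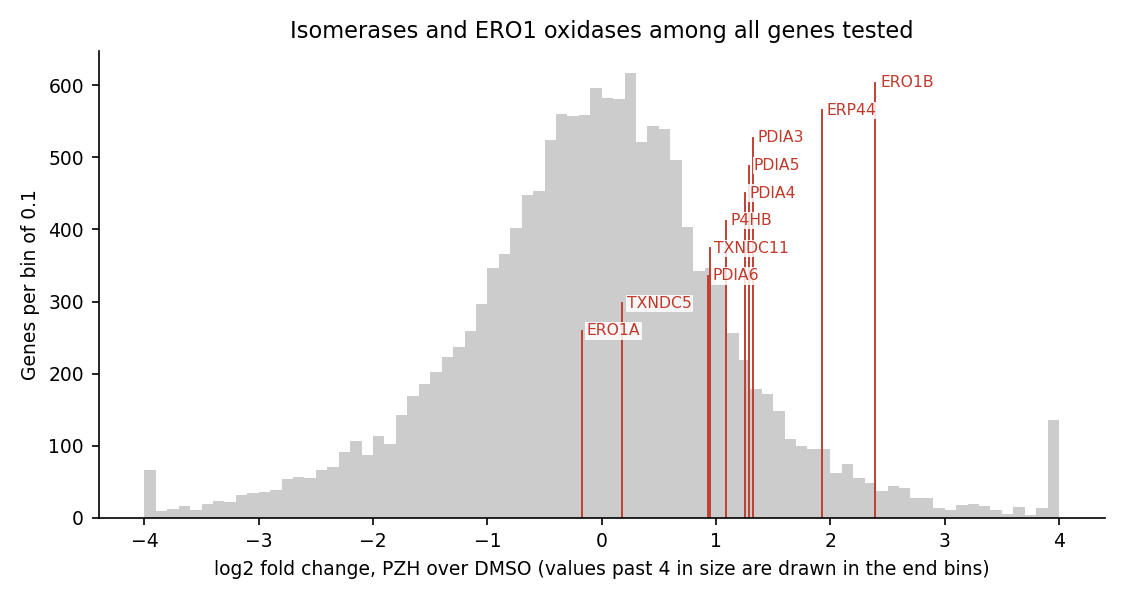
Log2 fold changes of all 15006 genes tested, PZH over DMSO, with the 10 isomerase and oxidase genes marked. ERO1B (2.39) and ERP44 (1.92) lie in the upper tail, PDIA6, TXNDC11, P4HB, PDIA4, PDIA5 and PDIA3 between 0.93 and 1.33, and TXNDC5 and ERO1A near the centre.

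Some counts of these genes may be shared with other rows. The processed pseudogene PDIA3P1 matches 1514 bases of the PDIA3 transcript at 98.0% identity in GENCODE 29, and its row stood at 63.4 ± 3.25 CPM in PZH and 24.4 ± 1.76 CPM in DMSO (SD, n = 4 each), a log2 fold change of 1.38 ± 0.063 SE (edgeR adjusted p = 3.06e-15) close to that of PDIA3, so both values are uncertain to the extent that reads were split between them. With the 2 rows summed the log2 fold change was 1.33. PDIA3P2 had 14 counts over the PZH libraries and 3 over the DMSO libraries, and the readthrough row BLOC1S5-TXNDC5, which covers 82.3% of the exon bases of TXNDC5, had 2 over PZH and 0 over DMSO. The sources used here do not say whether counting used strand. On the opposite strand, ELL3 covers 16.8% of the exon bases of PDIA3, with 45 counts over the PZH libraries and 91 over the DMSO libraries. ATP6V1C2 covers 29.7% of those of PDIA6, with 273 over PZH and 262 over DMSO. CATSPER2P1 covers 4.72% of those of PDIA3, with 216 over PZH and 30 over DMSO. SNN covers 2.48% of those of TXNDC11, with 812 over PZH and 3310 over DMSO. Antisense genes also overlap P4HB, ERO1A and TXNDC11, by 20.3%, 10.9% and 12.5% of exon bases.

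Other members of the isomerase family went both ways. Their summed TMM-scaled level was higher in PZH, at 759.6 to 854 CPM in the PZH libraries and 638.5 to 655 CPM in the DMSO libraries. Most of that difference lay in DNAJC10. The TMM factors were 0.896 to 0.949 in PZH and 1.09 to 1.10 in DMSO, and without them the sums of the groups overlap. Of 14 listed, 12 had a row and 9 were tested, of which 5 rose and 2 fell. Their median log2 fold change was 0.12, beside 1.17 for the 10 genes above. Beside this list and those below, 39.3% of all genes tested were called higher and 40.9% lower. DNAJC10, an ER reductase that helps degradation, rose 2.14-fold, at 191 ± 23.4 CPM in PZH and 89.1 ± 1.56 CPM in DMSO. The membrane-bound TMX2 and TXNDC15 rose 1.52-fold and 1.42-fold. TMX1, a membrane reductase, fell 1.26-fold to 77.5 ± 8.19 CPM in PZH, against 98.02 ± 4.93 CPM in DMSO. TXNDC16 fell 3.39-fold, at 1.99 ± 0.583 CPM in PZH and 6.77 ± 0.618 CPM in DMSO. AGR2, an isomerase of mucus-making cells, had 0 counts in all 8 libraries, and PDIA2, the pancreatic isomerase, 2 counts in all, over the PZH libraries. Without scaling factors 3 of the family rose and 4 fell.

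Other enzymes that put in or use up oxidising power in the ER were called in both directions. Of 6 tested, 1 was called higher and 3 lower (0 higher and 6 lower without scaling factors), with a median log2 fold change of -0.10. PRDX4, the ER peroxiredoxin that uses the peroxide from ERO1, stood at 73.8 ± 6.56 CPM in PZH and 85.6 ± 2.71 CPM in DMSO and fell 1.16-fold (edgeR adjusted p = 0.00152). VKORC1 of the vitamin K cycle and its relative VKORC1L1 fell 1.84-fold and 1.16-fold. The sulfhydryl oxidase QSOX2 was called 1.11-fold higher (log2 0.15, edgeR adjusted p = 0.00581), but was at 0.075 with upper quartile factors (edgeR adjusted p = 0.136) and turned to a call lower, at -0.11, with no scaling (edgeR adjusted p = 0.0383). The peroxidase GPX7 had 1 count in each group.

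Partners and clients of the isomerases went both ways. Of 11 tested, 7 rose and 3 fell (4 and 3 without scaling factors), with a median log2 fold change of 0.35. Of all genes tested, 80.3% were called in either direction. HSPA5 rose 18.9-fold, at 20668 ± 2184 CPM in PZH and 1094.5 ± 26.8 CPM in DMSO (SD, n = 4 each). Calnexin, encoded by CANX, rose 2.14-fold and calreticulin, encoded by CALR, 1.64-fold. P4HA2, a catalytic subunit that joins P4HB in collagen prolyl hydroxylase, rose 2.98-fold. The related P4HA1 was called lower (log2 -0.15, edgeR adjusted p = 0.0201), with overlap between groups, and P4HA3 was not called. SUMF1, the sulfatase-modifying enzyme that ERP44 retains, fell 3.95-fold, at 7.89 ± 1.75 CPM in PZH and 31.2 ± 1.65 CPM in DMSO, while ERP44 rose. TAPBP, or tapasin, which binds PDIA3 in the loading of peptides onto class I molecules, fell 1.76-fold. Outside the ER, of 9 genes of the thioredoxin, glutaredoxin and mitochondrial disulfide systems 5 rose and 2 fell (2 and 4 without scaling factors), with a median of 0.27. Cytosolic thioredoxin reductase TXNRD1 rose 7.33-fold and glutathione reductase GSR 1.59-fold. Cytosolic thioredoxin TXN and glutaredoxin GLRX were called 1.26-fold and 1.34-fold higher, but neither passed without scaling factors (adjusted p = 0.252 and 0.137), and mitochondrial TXN2 fell 1.35-fold.

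**Figure D5:**
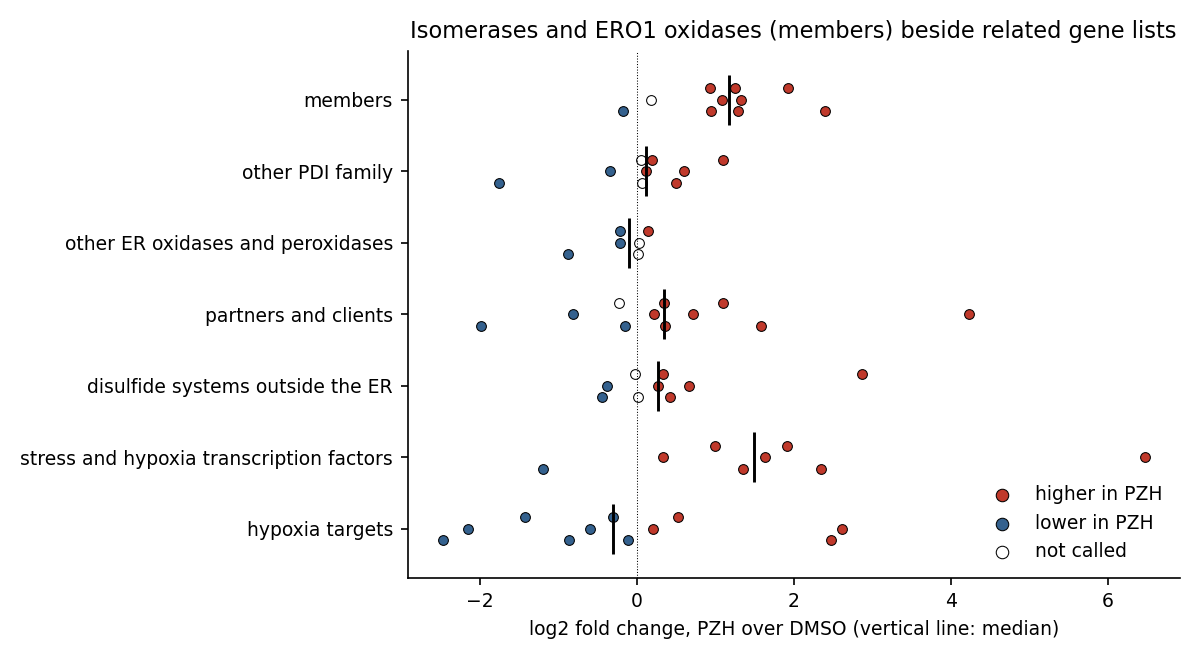
Log2 fold changes, PZH over DMSO, of the 10 genes (top row, members) and of the tested genes of 6 related lists, with each list's median as a vertical line. Red genes were called higher, blue lower, open ones not called. The medians are 1.17 for the 10 genes, 0.12 for the other family members and -0.10 for the other ER oxidases and peroxidases.

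Of 8 listed transcription factors of stress and hypoxia responses, 7 rose and 1 fell, with a median log2 fold change of 1.49. CHOP, encoded by DDIT3, rose 88.9-fold, at 387 ± 35.01 CPM in PZH and 4.36 ± 0.917 CPM in DMSO (SD, n = 4 each). XBP1, the factor of the IRE1 branch, rose 5.09-fold, ATF4 3.76-fold, ATF6 3.09-fold and NFE2L2, which encodes NRF2, 2.55-fold, while ATF6B fell 2.30-fold. The hypoxia factors of this list, HIF1A and EPAS1, both rose without overlap between groups. Their log2 fold changes were 0.336 (edgeR adjusted p = 1.23e-06) and 0.996 (edgeR adjusted p = 1.59e-14). HIF1A had 15039 counts over the PZH libraries and 15055 over the DMSO libraries, so the size of its rise depends on the scaling. EPAS1 had 8095 over PZH and 5128 over DMSO. Without scaling factors 6 of the 8 factors were called higher, among them DDIT3, XBP1, ATF4, ATF6 and NFE2L2. ERO1A is also known as a hypoxia target, and whether HIF1A or EPAS1 bears on its level was not tested. Of 11 tested hypoxia targets 4 rose and 7 fell, with a median of -0.30 (4 fell with the GC trend removed). NDRG1 and VEGFA rose 6.12-fold and 5.57-fold, and LDHA, EGLN3 and PGK1 fell 5.56-fold, 4.45-fold and 2.68-fold. CA9, a common marker of hypoxia, had 1 count over the PZH libraries and 48 over the DMSO libraries.

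The genes most like P4HB, ERO1B and ERO1A over the 8 libraries were found among 10856 genes by the distance between gene-centred log2 CPM profiles, which reflects mainly the difference between groups. Nearest to P4HB were TRAF3IP2 (distance 0.0680), PSME4 (0.0808) and CANX (0.0902), the last of these at 2639 ± 123 CPM in PZH and 1233 ± 15.5 CPM in DMSO. Nearest to ERO1B were ZNF674 (0.247), PRKAB2 (0.273) and PPM1K (0.280). Nearest to ERO1A were MYO18A (0.0668), APH1A (0.0722) and MTCH1 (0.0756). The calls of these 3, each lower in PZH with log2 fold changes of -0.17, -0.15 and -0.18, did not hold with the GC trend removed (-0.017, -0.0037 and 0.027), whereas that of ERO1A did.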

How the data were processed

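Poly(A) RNA of 8 HCT116 libraries, 4 PZH and 4 DMSO, was sequenced from NEBNext Ultra libraries, per the labels' protocols. The authors deposited 1 table of raw counts per gene symbol, not normalized, with 0 columns of no sample. Per the submitters' processing notes, the tools were DESeq 1.28.0, StringTie 1.3.3b, HISAT2 2.1.0 and FastQC 0.11.5, without roles; build, annotation and strand setting were not given in the sources used here. Rows of 25 dated gene names stayed in library sizes and tests.

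Genes were kept by filterByExpr (edgeR 4.0.16 defaults: minimum count 10, total 15), scaled with TMM, and compared across all genes by edgeR's quasi-likelihood F test with group as the only term, two-sided, Benjamini-Hochberg adjusted, threshold 0.05. Fold changes are PZH over DMSO. Standard errors were derived from the F statistic as |log2 fold change| over √F. The fit was checked on simulated data. Ratios used a pseudocount of 0.5 counts. Related lists held other family members, other ER oxidases and peroxidases, partners and clients, outside disulfide systems and hypoxia targets. Further lists held stress and hypoxia transcription factors and markers of cell types. Members, lists and rules were chosen with earlier results of these data known. Named genes were all 10 members, the called genes of smallest p in each list (up to 5), the 3 nearest profiles for each of 3 members (mean log2 CPM of at least 2), and rows whose symbol contains a member's. The rule also allowed members not called; most are counted without being named. CALR, ATF6B, PDIA2, AGR2 and the other genes outside the rule were named after their values were seen.

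Replicates of a group varied beyond Poisson noise in every pair (chi-square over its degrees of freedom from 2.39 to 12.3), so none was treated as a duplicate. Alternatives were other scaling, filters, tools, a threshold of 0.01, the replicate number as a block and leaving out each library. Added after seeing the data were leaving out PZH replicates 1 and 2 or 3 and 4, leaving out the 10 most abundant genes, removing each library's GC trend (loess, span 0.3), and summing PDIA3 with PDIA3P1; the search for the ER stress element with 1 changed letter was added too. Tools were R 4.3.3, limma 3.58.1, DESeq2 1.42.0 and Python 3.11.15. TXNDC5 had 163 to 220 counts a library and P4HB at least 19647.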

Additional observations from a re-analysis of the deposited data

Results flagged for a closer look

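P4HB in DMSO replicate 1 stood at 902 CPM, apart from the other 3 DMSO libraries, which ran from 936 to 938 CPM. The gap to the nearest library was 0.927 of the group's range, above Dixon's 95% critical value for 4 samples. Chance flags about 1 in 20 groups, and 20 groups were looked at here (10 genes in each of PZH and DMSO). Without that library P4HB was still called higher.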

How the results depend on the processing

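Over the 10 isomerase and oxidase genes, 229 of 230 values under 23 alternatives kept their direction and their side of the threshold; the exception was TXNDC5, which did not pass in either and turned to -0.078 without scaling factors. The counts of 8 higher and 1 lower were the same in all 23. Without scaling factors the median log2 fold change of all genes was -0.28, against -0.024, and 4476 genes were higher and 7670 lower, or 36.9% higher among calls against 49.0%; the rises of the set are smaller on that scale (ERO1B 2.14, P4HB 0.83). On it the other family members had 3 higher and 4 lower, the other ER oxidases and peroxidases 0 and 6, partners and clients 4 higher, and disulfide systems outside the ER 2 and 4. QSOX2 reversed to -0.11 there, and the list of ER oxidases and peroxidases had 0 higher with upper quartile factors. With the GC trend removed that list had 2 higher, hypoxia targets 4 lower and outside disulfide systems 1 lower, and MTCH1 reversed to 0.027. The causes were not tested. Over the 38 other named genes, 864 of 872 values kept direction and side; besides the 2 reversals, 6 calls were lost (QSOX2 with upper quartile factors, TXN and GLRX without scaling factors, MYO18A and APH1A with the GC trend removed, and APH1A without PZH replicates 3 and 4).

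The labels do not say whether replicate numbers pair the libraries. Deviations of same-numbered PZH and DMSO libraries correlated at 0.000736 to 0.0113, which cannot show whether they were handled in pairs. With the replicate block 5889 genes were higher and 6125 lower, no call of the set changed, and the log2 ratios of ERO1B to ERO1A (2.57) and PDIA6 to PDIA3 (-0.40) had adjusted p = 0.125, the smallest that sign flips of 4 pairs allow. On leaving out each library in turn, the log2 ratio of PDIA4 to P4HB ran from 0.13 to 0.22. It fell under the threshold without PZH replicate 2, the library through which the groups overlapped, so that outcome was fixed in advance. Among the 10 genes TXNDC5 had the fewest counts, 163 to 220 a library.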
